A study of Rattus norvegicus with 50 samples.

Results

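The lungs of air-breathing control rats were compared between 90 days (D90) and 180 days (D180) after the end of a nose-only sham exposure. The comparison held 10 of the 50 arrays of the series, 5 at each day. Its arrays were taken by their titles. The pair of days was picked with earlier results of these data known, for shared slides and a similar clock phase. All rats were male F344, an inbred laboratory strain, aged 12 weeks at the start, and were held for 4 weeks in the inhalation tubes, on 5 days of each week. Controls breathed filtered air there, while the exposed rats of the same days breathed an aerosol of TiO2 nanoparticles (P25) at 10 mg/m3. Control rats were therefore about 28.9 weeks old at D90 and 41.7 weeks old at D180. RNA came from the accessory lobe, a single lobe of the right lung, with a separate rat on each one-colour Agilent array. The question was which transcripts of the unexposed adult lung differ between these ages.

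By this age the lung has finished forming alveoli. Type 1 and type 2 epithelial cells, capillary endothelium, fibroblasts and resident macrophages persist with slow turnover, and collagen and elastin laid down during growth are renewed slowly. Club cells and type 2 cells carry most of the enzymes that metabolise inhaled and blood-borne chemicals. Chemokines are secreted ligands that draw leukocytes through receptors on those cells, and immediate-early genes encode transcription factors and regulators that are transcribed within minutes of a stimulus.

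Median signals over the gene spots of each array, on the linear scale of the scanner, were 214 to 391 in D90 rats and 337 to 464 in D180 rats, and 73.4% to 83.5% and 75.6% to 81.8% of gene spots were well above background. Arrays correlated across genes at 0.988 to 0.995 within D90, at 0.985 to 0.992 within D180 and at 0.986 to 0.994 between the days. The 10 arrays lay on 3 slides, each with as many D90 as D180 arrays. The first principal component held 23.0% of the variance of these arrays, and slide accounted for 59.0% of that component and day for 17.2%. The second component held 17.3%, of which slide accounted for 0.50% and day for 28.4%. The lung markers Sftpc (surfactant protein C of type 2 cells), Ager (type 1 cells), Scgb1a1 (club cells) and Pecam1 (endothelium) were well above background on every array. Their log2 changes from D90 to D180 were -0.05 ± 0.04 (SE), 0.09 ± 0.07, 0.06 ± 0.07 and 0.07 ± 0.06, none of which passed the test. Sftpc was the brightest gene on 6 of the 10 arrays and ranked no lower than 4 on the others, so that quantile normalisation held its value nearly fixed.

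Few genes separated the days. A gene was called a DEG where it differed by 1.5-fold or more with a Benjamini-Hochberg adjusted p under 0.05 in limma. Of 23064 genes tested, 1 was called (0.00434%), namely Cxcl2, which was lower at D180. Without the fold limit, 4 genes had an adjusted p under 0.05 (0.0173%), with Eva1c higher and Cxcl2, Il1b and Hmgb2 lower at D180. Over 21 refits, with other settings or a single control rat left out, their adjusted p in limma reached higher values. These were 0.137 for Eva1c and Cxcl2, 0.441 for Il1b and 0.175 for Hmgb2. At an unadjusted p under 0.05 there were 2065 genes (8.95%), of which 1002 were higher (4.34%) and 1063 lower (4.61%). The 5 arrays of one day lay entirely above those of the other for 487 genes (2.11%). The median SE of a log2 change was 0.11, and for 16645 genes (72.2%) the whole 95% interval of the change lay within 1.5-fold in both directions. The slide as a fixed block, which keeps every log2 change and removes slide differences from the error, gave 7 DEGs (0.0304%). These were Cxcl2, Ccl2, Ccl7, Atf3, Dact1 and C2cd4a, all lower at D180, and Prmt8, which was higher.

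Cxcl2, a chemokine that attracts neutrophils through the receptor CXCR2, fell by 1.46 on the log2 scale (2.74-fold, SE 0.21, adjusted p = 0.0110). At D90 the 5 rats had log2 signals of 11.93, 10.29, 10.97, 11.21 and 10.98. At D180 they had 9.45, 9.46, 9.50, 9.97 and 9.73, so that every D180 rat lay below every D90 rat. Whole lobes were measured, in which fewer cells of a type and less RNA per cell cannot be told apart. Within the slides the difference was -1.86, -1.76 and -0.90. The call was lost without D90 replicate 4 (adjusted p = 0.0600), D180 replicate 1 (0.0555) or D180 replicate 3 (0.0581). It was also lost in fits of the 10 control arrays alone or of all 50 arrays (0.137 in both). The change itself ran from -1.65 to -1.24 over all 21 refits, some of which, such as the fits with a block, keep it by design. The Cxcl2 probe lies at chr14:18677165-18677224 of the rn4 assembly per the file headers. Related chemokines are similar in sequence, and cross-hybridisation was not tested.

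The sequence before the start of Cxcl2 is shown with those of Cxcl1, Ccl7 and Il1b, because these inflammatory ligands were among the lower genes described here. The promoter set used, from RefSeq on the rat assembly GRCr8, held 4 of the 6 promoters looked up (Cxcl2, Cxcl1, Ccl2, Ccl7, Il1b and Atf3). It had no entry for Ccl2 and Atf3. Each run is the 250 bases before the start, 5′ to 3′ on the gene's strand, at chr14:17467256-17467505 (minus strand) for Cxcl2, chr14:17479322-17479571 (minus) for Cxcl1, chr10:67513845-67514094 (plus) for Ccl7 and chr3:137036582-137036831 (minus) for Il1b. Capitals mark matches to 5 motifs searched on both strands.
Cxcl2: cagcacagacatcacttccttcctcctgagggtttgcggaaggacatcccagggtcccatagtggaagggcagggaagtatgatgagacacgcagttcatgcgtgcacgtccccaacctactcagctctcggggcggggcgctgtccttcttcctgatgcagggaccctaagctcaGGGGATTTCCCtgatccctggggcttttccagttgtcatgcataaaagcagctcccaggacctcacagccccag
Cxcl1: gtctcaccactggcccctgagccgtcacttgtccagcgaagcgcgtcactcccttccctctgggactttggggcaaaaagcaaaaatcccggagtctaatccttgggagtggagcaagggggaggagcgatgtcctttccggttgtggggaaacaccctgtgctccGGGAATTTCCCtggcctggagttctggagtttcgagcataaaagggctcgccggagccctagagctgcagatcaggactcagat
Ccl7: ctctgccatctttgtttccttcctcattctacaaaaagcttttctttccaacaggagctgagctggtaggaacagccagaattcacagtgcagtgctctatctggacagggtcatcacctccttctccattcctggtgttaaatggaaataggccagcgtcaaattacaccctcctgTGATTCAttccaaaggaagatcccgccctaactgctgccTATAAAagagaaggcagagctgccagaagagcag
Il1b: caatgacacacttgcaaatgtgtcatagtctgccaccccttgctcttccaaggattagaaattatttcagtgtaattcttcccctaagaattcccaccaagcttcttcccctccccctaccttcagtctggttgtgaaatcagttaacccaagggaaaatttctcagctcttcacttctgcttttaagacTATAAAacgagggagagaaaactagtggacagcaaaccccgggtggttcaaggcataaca
The capitals in Cxcl2 and Cxcl1 are each a pair of overlapping matches to the NF-kappaB motif, which begin 74 and 73 bases before the start in Cxcl2 and 84 and 83 bases before it in Cxcl1. This motif occurred in 3.54% of the 33469 promoter windows of the same length. Ccl7 held a match to the letters TGANTCA, found in 6.34% of the windows. These letters were searched as a loose form of the AP-1 motif with any middle base, which is T in Ccl7. Ccl7 and Il1b held the letters TATAAA, found in 12.9%. The cyclic AMP response motif TGACGTCA (1.59%) and the E-box CACGTG (5.59%) had no match in these 4 windows. A match is a run of letters and not evidence that a factor bound there.

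**Figure D1:**
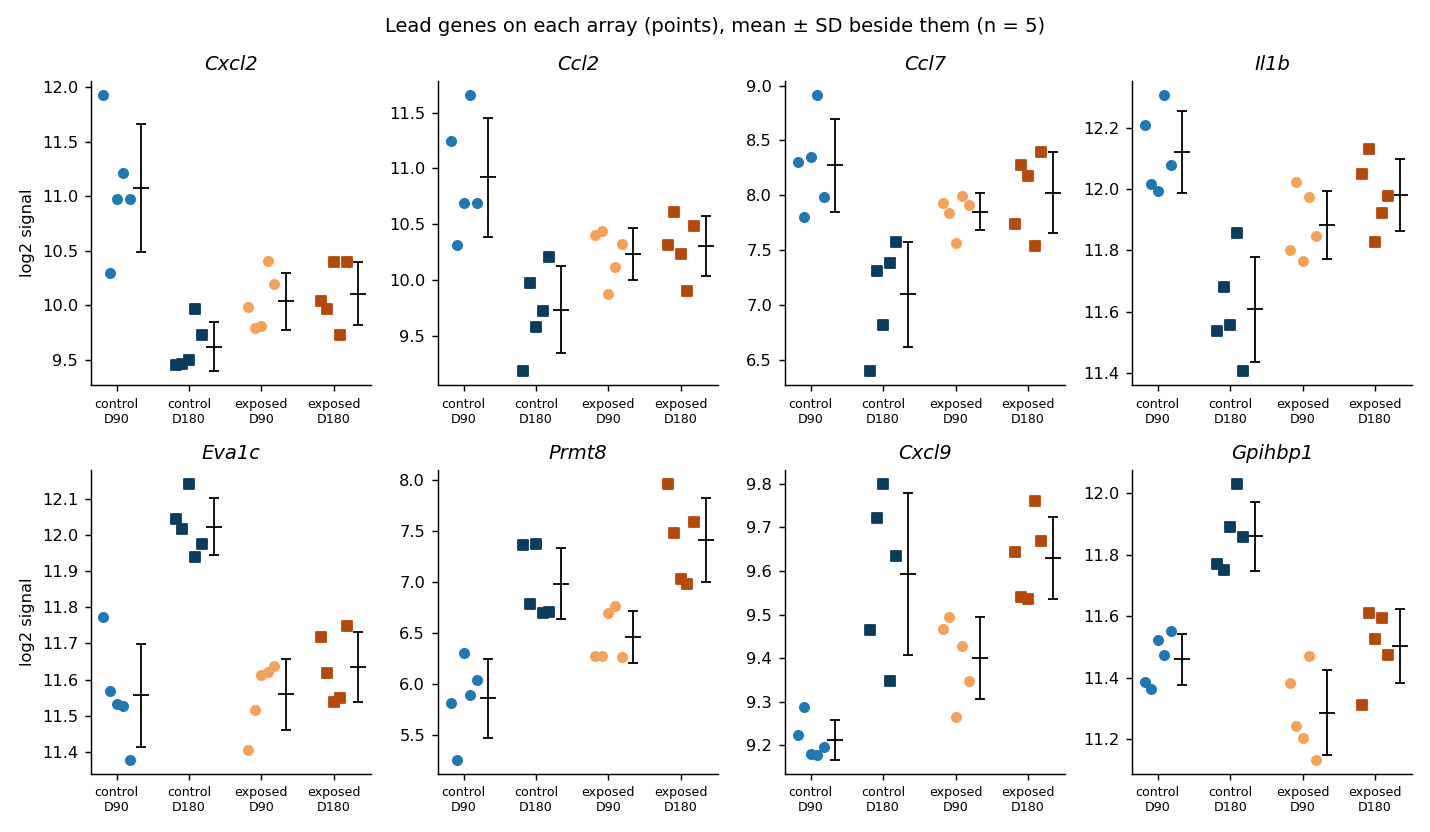
Log2 signal of 8 genes on each array, with 5 control and 5 exposed rats at D90 and at D180; points are single arrays and the bars beside them are the mean ± SD. Control rats at D90 lie above all control rats at D180 for Cxcl2, Ccl2, Ccl7 and Il1b and below them for Eva1c, Prmt8, Cxcl9 and Gpihbp1, while exposed rats overlap between the days for Cxcl2, Ccl2, Ccl7, Il1b, Eva1c and Gpihbp1.

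Ccl2 and Ccl7, ligands of the monocyte receptor CCR2, had log2 changes of -1.19 ± 0.21 (adjusted p = 0.0511) and -1.18 ± 0.22 (0.0579), which passed with the slide as a block (0.0354 and 0.0473). Ccl2 was 11.25, 10.32, 10.69, 11.66 and 10.69 at D90 and 9.19, 9.97, 9.58, 9.72 and 10.21 at D180. The days did not overlap for either gene. Il1b, the cytokine interleukin-1 beta, was 12.21, 12.02, 11.99, 12.31 and 12.08 at D90 and 11.54, 11.68, 11.56, 11.86 and 11.41 at D180. It fell by 0.51 (SE 0.08, adjusted p = 0.0213), which is below the fold limit. Of 34 chemokine ligands tested, 1 was called, and 11 had lower and 2 higher values at an unadjusted p under 0.05 (32.4% and 5.88%, against 4.61% and 4.34% of all genes). Their median log2 change was -0.09, beside 0.00 for all genes, and was below 0 in all 21 refits, some of which keep it by design. The lower members included Ccl12 (-1.26 ± 0.33), Cxcl1 (-0.62 ± 0.16), Ccl19 (-0.39 ± 0.15), Cxcl14 (-0.37 ± 0.09) and Cxcl3 (-0.28 ± 0.08), with unadjusted p from 5.02e-04 to 0.0197. Cxcl9 and Ccl6 had positive changes.

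Immediate-early genes had the lowest median of the 44 gene lists examined, at -0.30 over 32 members. No member was called without the slide block, 15 had lower values and 0 higher values at an unadjusted p under 0.05 (46.9% against 4.61%), and 6 had lower values without overlap between the days (0.967% of all genes did). Atf3, a transcription factor induced by stress, had a log2 change of -0.94 ± 0.19 (adjusted p = 0.0654, or 0.0309 with the slide block). It was 12.48, 11.69, 11.95, 11.99 and 11.74 at D90 and 10.59, 10.79, 11.07, 10.99 and 11.68 at D180. Fos, a subunit of the AP-1 factor, had the largest size at -1.79 ± 0.44 (adjusted p = 0.141). Its values were 10.21, 10.36, 9.60, 10.33 and 10.01 at D90, and 7.17, 7.91, 7.80, 9.38 and 9.31 at D180. D180 rats spread more widely than D90 rats for Fos (SD 0.98 against 0.31) and for Egr1 (0.92 against 0.42), whose log2 change was -1.30 ± 0.44. Cyr61, a secreted matricellular protein, had -1.35 ± 0.31, the nuclear receptor Nr4a1 -1.05 ± 0.32 and the AP-1 subunit Junb -0.55 ± 0.16. The mean of the list on an array, minus its mean over the 10 arrays, lay between 0.06 and 0.41 in D90 rats and between -0.49 and 0.05 in D180 rats. The part of these rapidly inducible transcripts in the chemokine differences was not tested.

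Hmgb2, a chromatin protein abundant in proliferating cells, was 11.87, 11.84, 11.80, 11.89 and 11.83 at D90 and 11.56, 11.59, 11.35, 11.52 and 11.58 at D180. It fell by 0.32 (SE 0.05, adjusted p = 0.0382), and its 2 probes gave -0.33 and -0.32. Hist1h1b, a linker histone made during DNA replication, had a log2 change of -0.82 ± 0.16 (adjusted p = 0.0654). Of 61 cell cycle and DNA replication genes, none was called, 54 had a negative change, and 15 were lower and 0 higher at an unadjusted p under 0.05 (24.6% against 4.61%). The list's median was -0.18 and ran from -0.22 to -0.08 over the refits, and within the 3 slides it was -0.06, 0.02 and -0.35. In exposed rats of the same days the list median was -0.02. There 1 member was lower and 0 higher at that p, against 2.09% and 3.91% of all genes. Mki67, the proliferation antigen Ki-67, was 8.91, 8.88, 8.97, 8.81 and 8.93 at D90 and 8.70, 8.75, 8.62, 8.48 and 8.76 at D180, without overlap (-0.24 ± 0.08, adjusted p = 0.367). The kinesin Kif22 had -0.34 ± 0.10, thymidine kinase Tk1 -0.31 ± 0.09 and the mitotic kinase Cdk1 -0.20 ± 0.08.

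The remaining 3 of the 10 genes with the smallest p among the lower ones were signalling and membrane genes. Dact1, a regulator of Wnt signalling that binds Dishevelled, had a log2 change of -0.80 ± 0.14 (adjusted p = 0.0511, or 0.0103 with the slide block). Bambi, a decoy receptor of the TGF-beta family, had -0.43 ± 0.08 (0.0511), and Lhfpl3, a tetraspan membrane protein, -0.36 ± 0.07 (0.0579). All of the 10 had days that did not overlap, while 0.967% of all genes were lower without overlap. The 10 were chosen by their p on the same arrays, so this adds no support.

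Among the higher genes, Eva1c, a transmembrane receptor that binds Slit, had the smallest p of all genes. It was 11.77, 11.57, 11.53, 11.53 and 11.38 at D90 and 12.04, 12.02, 12.14, 11.94 and 11.97 at D180. It rose by 0.47 (SE 0.06, adjusted p = 0.0110), which is below the fold limit. Prmt8, an arginine methyltransferase known mainly from the brain, had the largest change of the 10 genes with the smallest p, at 1.12 ± 0.21 (2.18-fold, adjusted p = 0.0579, or 0.0495 with the slide block). It was 5.81, 5.25, 6.31, 5.89 and 6.04 at D90 and 7.36, 6.78, 7.37, 6.70 and 6.71 at D180. Its brighter probe gave 1.02, and the dimmer one, with a change of the same sign, was well above background on only 2 D90 and 4 D180 arrays. Over the 21 refits the Prmt8 change ran from 0.57 to 1.24, with an adjusted p of up to 0.418. Gpihbp1, which anchors lipoprotein lipase on capillary endothelium, had 0.40 ± 0.07 (adjusted p = 0.0511), and the small proteoglycan Podnl1 0.48 ± 0.09 (0.0579). Cxcl9, a T cell chemokine induced by interferon gamma, had 0.38 ± 0.07 (0.0654). Pik3ip1, an inhibitor of PI3-kinase, had 0.48 ± 0.10, the cytochrome P450 Cyp3a9 0.38 ± 0.08 and the small membrane protein Smim3 0.35 ± 0.07, each with an adjusted p of 0.0689. The other two were RGD1560398 (0.35 ± 0.07), which RefSeq now names C12h12orf76, and the probe A_64_P047291 (0.71 ± 0.14), for which the array files give no gene. The days did not overlap for any of these 10, while 1.14% of all genes were higher without overlap. These genes were chosen by their p on the same arrays, so this adds no support.

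Exposed rats of the same 2 days, which share no array with the controls, gave a second view of the same interval of age. These rats had also inhaled TiO2 and were recovering from it, so that age and recovery cannot be told apart in them. They also stood at another clock phase than the controls. Dbp, a clock output gene, was 12.55 to 13.83 in exposed rats at D90 and 12.24 to 13.32 at D180, against 9.72 to 10.24 and 9.64 to 10.09 in controls. The clock factor Arntl had means of 8.30 and 8.84 in exposed rats against 9.83 and 9.96 in controls, and the log2 changes of Dbp and Arntl within exposed rats were -0.48 ± 0.21 and 0.54 ± 0.15, neither past the test. The part of clock phase in the differences and likenesses between the arms was not tested. Between D90 and D180 2 DEGs were called in exposed rats (0.00867%), Wnk2 and Slc6a2. Of the 10 higher control genes with the smallest p, 8 had the same sign in exposed rats and 4 an unadjusted p under 0.05 with it. Of the 10 lower ones, 2 had the same sign and 0 an unadjusted p under 0.05. Cxcl2 had a log2 change of 0.07 ± 0.21 in exposed rats. Its signals there were 9.98, 9.80, 9.81, 10.40 and 10.20 at D90 and 10.04, 9.97, 10.40, 9.73 and 10.40 at D180, below the control mean of 11.08 at D90 and above the control mean of 9.62 at D180. Il1b had 0.10 ± 0.08 and Fos 0.01 ± 0.44 in exposed rats. In the test of the difference between the day changes, no gene was called (0%) and 1237 had an unadjusted p under 0.05 (5.36%), of which 752 were positive, exposed minus control (3.26% of all genes). The difference for Cxcl2, exposed minus control, was 1.52 ± 0.30 (adjusted p = 0.116, or 0.0821 with the slide block). With the slide as a block, 2 genes were called, Dact1 (adjusted p = 0.00764) and the phosphatase gene Dusp5 (0.0169). Without the block their differences were 1.25 ± 0.20 and 0.89 ± 0.14 (adjusted p = 0.0557 for both). The exposed arrays were spread unevenly over the slides, so the block can alter these estimates. Without the block both genes had a negative day change in controls and a positive one in exposed rats.

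**Figure D2:**
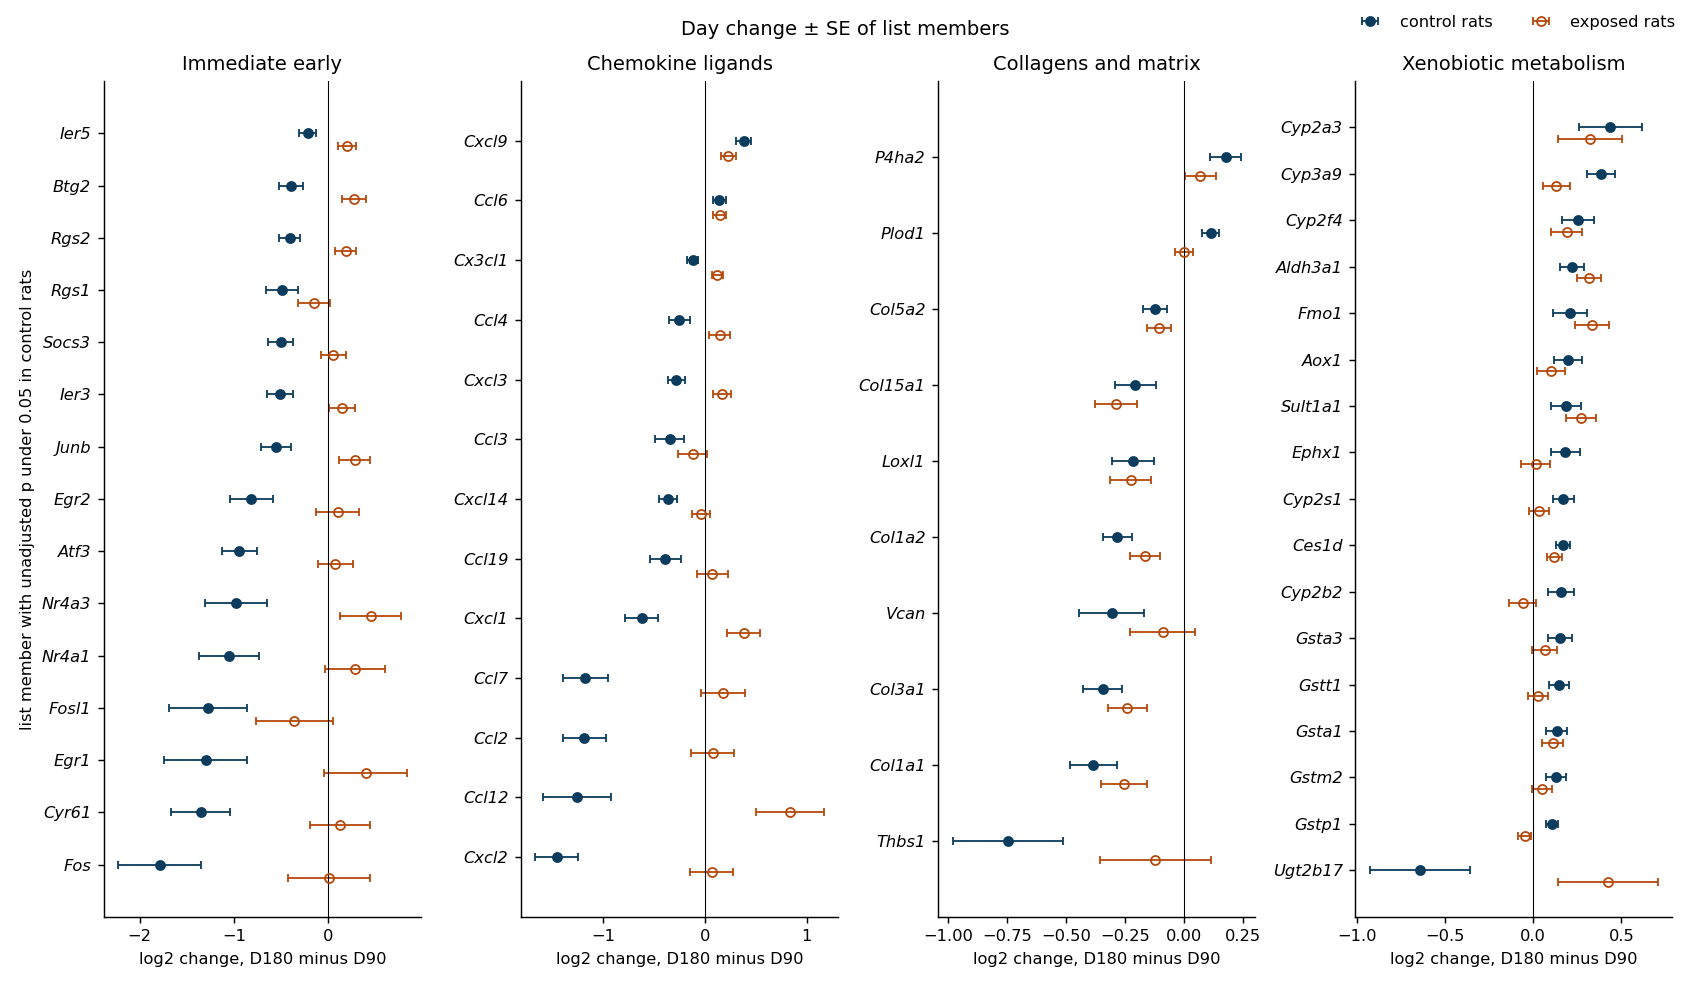
Log2 change from D90 to D180 ± SE in control rats (filled) and exposed rats (open) for members of 4 gene lists that had an unadjusted p under 0.05 in controls; each panel has its own horizontal scale, and 1 member of the xenobiotic list is not shown. Of the immediate-early members 13 of 15 have positive changes in exposed rats, whereas the 8 negative members of the collagen list are negative in both arms.

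Some differences were shared by the arms. At an unadjusted p under 0.05, 124 genes were higher at D180 in both (12.4% of the 1002 in controls and 13.7% of the 902 in exposed rats, against 3.91% of all genes higher in exposed rats). For lower genes the count was 53 (4.99% of 1063 and 11% of 482, against 2.09%). Opposite directions were seen for 16 genes higher in controls and lower in exposed rats, and for 55 genes the other way. The day change was therefore also fitted as the average over both arms, with 10 rats at each day, a comparison added after the values had been seen. It gave 40 genes with an adjusted p under 0.05 (0.173%), 28 higher and 12 lower at D180, and 7 of these reached 1.5-fold. All 40 had the same sign in both arms and 34 an unadjusted p under 0.05 in each. They were chosen by the average of the same changes, so this likeness between the arms is no test. With the slide as a block all 40 kept an adjusted p under 0.05, among 95 genes in all.

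Prmt8 rose in this average by 1.04 ± 0.15 (adjusted p = 0.00613). Ctxn3, a cortexin membrane protein, rose by 0.75 ± 0.11 (0.00613). Its control values were 5.59, 5.54, 5.55, 5.36 and 5.37 at D90 and 6.02, 6.33, 6.33, 5.81 and 6.29 at D180. Ppp1r1b, the phosphatase inhibitor DARPP-32, rose by 0.36 ± 0.05 (0.00920), with 9.53, 9.85, 9.79, 9.44 and 9.65 in controls at D90 and 10.13, 9.90, 10.09, 10.06 and 9.93 at D180. For Ctxn3 and Ppp1r1b the control days did not overlap. The serine protease Klk6 rose by 0.97 ± 0.18 (0.0370), the membrane protein Tmeff2 by 0.47 ± 0.08 (0.0210) and neuropeptide Y (Npy) by 0.46 ± 0.09 (0.0310). Wnk2, a kinase, and Slc6a2, the noradrenaline transporter, also rose in the average (0.68 ± 0.10 and 0.54 ± 0.10), but their changes in controls alone were 0.32 ± 0.14 and 0.21 ± 0.14. Cdkn1c, the imprinted cell cycle inhibitor p57, rose by 0.27 ± 0.05 (0.0188), with near-equal values in controls (0.28) and exposed rats (0.27). Gpihbp1 (0.31 ± 0.05), Podnl1 (0.37 ± 0.06), Cxcl9 (0.31 ± 0.05) and Eva1c (0.27 ± 0.05) were also among the 28, although the change of Eva1c in exposed rats was only 0.08 ± 0.06. Cxcl2 was not among the 40, at -0.69 ± 0.15 (adjusted p = 0.0625).

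**Figure D3:**
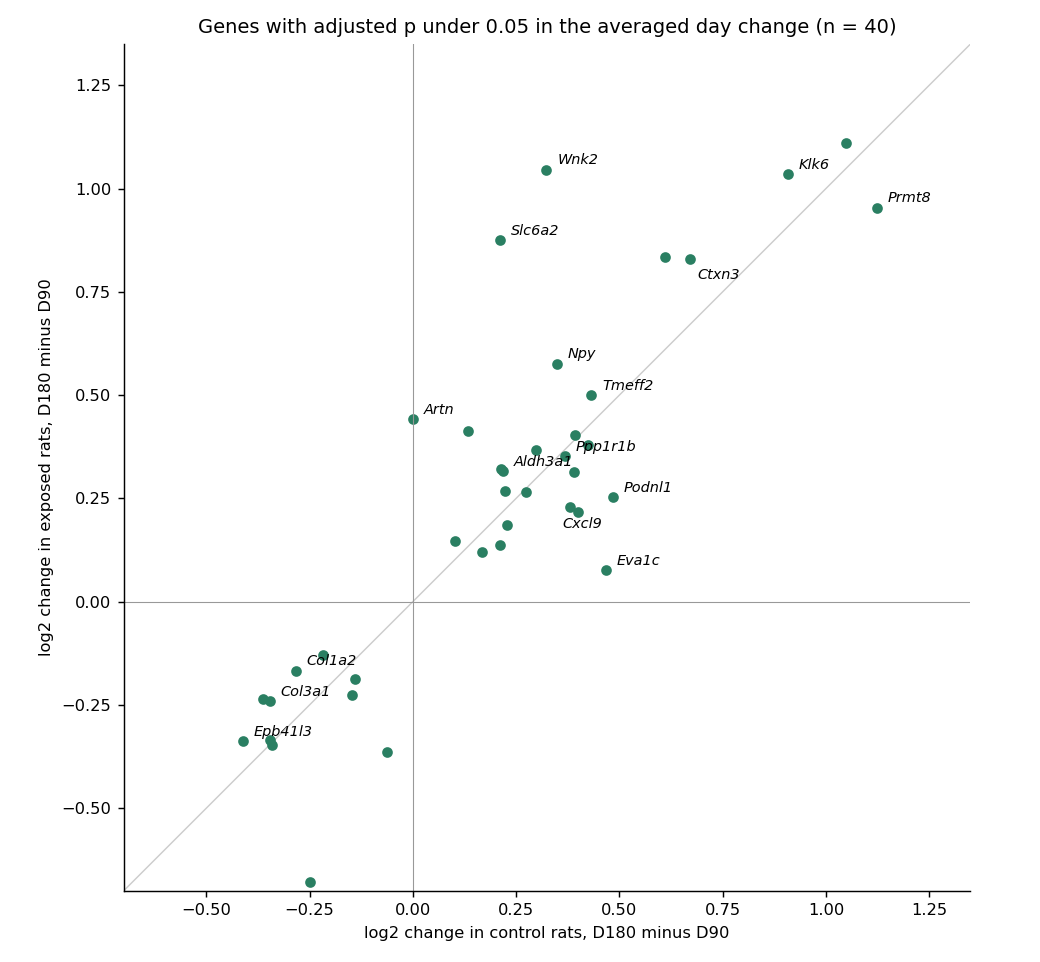
Log2 change from D90 to D180 in control rats against that in exposed rats for the 40 genes with an adjusted p under 0.05 in the averaged day change; each point is a gene and the diagonal marks equal changes. The points were chosen by the average of both axes, so their place near the diagonal is no test, and Wnk2, Slc6a2 and Artn lie far above it while Eva1c lies below it.

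Fibrillar collagens of type I and III had lower values at D180 in both arms. In controls, 8 of 38 interstitial collagens and matrix proteins were lower and 2 higher at an unadjusted p under 0.05 (21.1% and 5.26%, against 4.61% and 4.34%), with a list median of -0.06. In exposed rats 7 were lower and 0 higher (against 2.09% and 3.91% of all genes), and the median was again -0.06. Col1a2, a chain of type I collagen, was 15.38, 15.38, 15.36, 15.47 and 15.36 in control rats at D90 and 15.31, 15.14, 15.05, 14.99 and 15.04 at D180. The control days did not overlap (-0.28 ± 0.06, adjusted p = 0.0962), and in the average over both arms Col1a2 fell by 0.23 (SE 0.04, adjusted p = 0.0429). Col3a1, the chain of type III collagen, fell by 0.29 in the average (SE 0.06, adjusted p = 0.0478). Col1a1, the other chain of type I collagen, had -0.39 ± 0.10 in controls and -0.32 ± 0.07 in the average (adjusted p = 0.0639). In the average, 13 of the 38 list members were lower and 1 higher at an unadjusted p under 0.05, against 4.44% and 5.06% of all genes. Col15a1, Loxl1 and Col5a2 had control changes of -0.21 ± 0.09, -0.22 ± 0.09 and -0.12 ± 0.05. Elastic fibre genes had 2 of 18 lower and 0 higher in controls, basement membrane genes 0 of 21 lower and 1 higher, and metalloproteinases with their inhibitors 2 of 26 lower and 0 higher, with medians of -0.03, -0.02 and -0.04. The members with the smallest p were Mfap5 (-0.15), Nid2 (0.42) and Mmp14 (-0.18). The Nid2 value came from a dim probe, and its brighter probe gave -0.05.

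Of 38 enzymes of xenobiotic metabolism none was called, 17 were higher and 1 lower at an unadjusted p under 0.05 (44.7% and 2.63%, against 4.34% and 4.61%), and the median was 0.13 in controls and 0.07 in exposed rats. Cyp3a9 led by p in controls, at 9.09, 9.43, 9.19, 9.01 and 9.21 at D90 and 9.49, 9.47, 9.59, 9.53 and 9.77 at D180. Ces1d, a carboxylesterase, and the aldehyde dehydrogenase Aldh3a1 had control changes of 0.17 ± 0.04 and 0.22 ± 0.07. Both rose in the average over the arms, by 0.14 ± 0.03 (adjusted p = 0.0478) and 0.27 ± 0.05 (0.0250). In that average 17 of the 38 were higher and 0 lower, against 5.06% and 4.44% of all genes. The cytochrome P450 Cyp2a3 had 0.44 ± 0.18 in controls and the sulfotransferase Sult1a1 0.18 ± 0.08. In the list of cholesterol and fatty acid synthesis, 3 of 44 were lower and 2 higher in controls. In exposed rats 15 were lower and 1 higher, against 2.09% and 3.91% of all genes. Its leading gene Hmgcs1, which makes HMG-CoA for cholesterol synthesis, had -0.35 ± 0.09 in controls and fell by 0.34 in the average (SE 0.07, adjusted p = 0.0429), in which 16 of the 44 were lower and 2 higher.

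**Figure D4:**
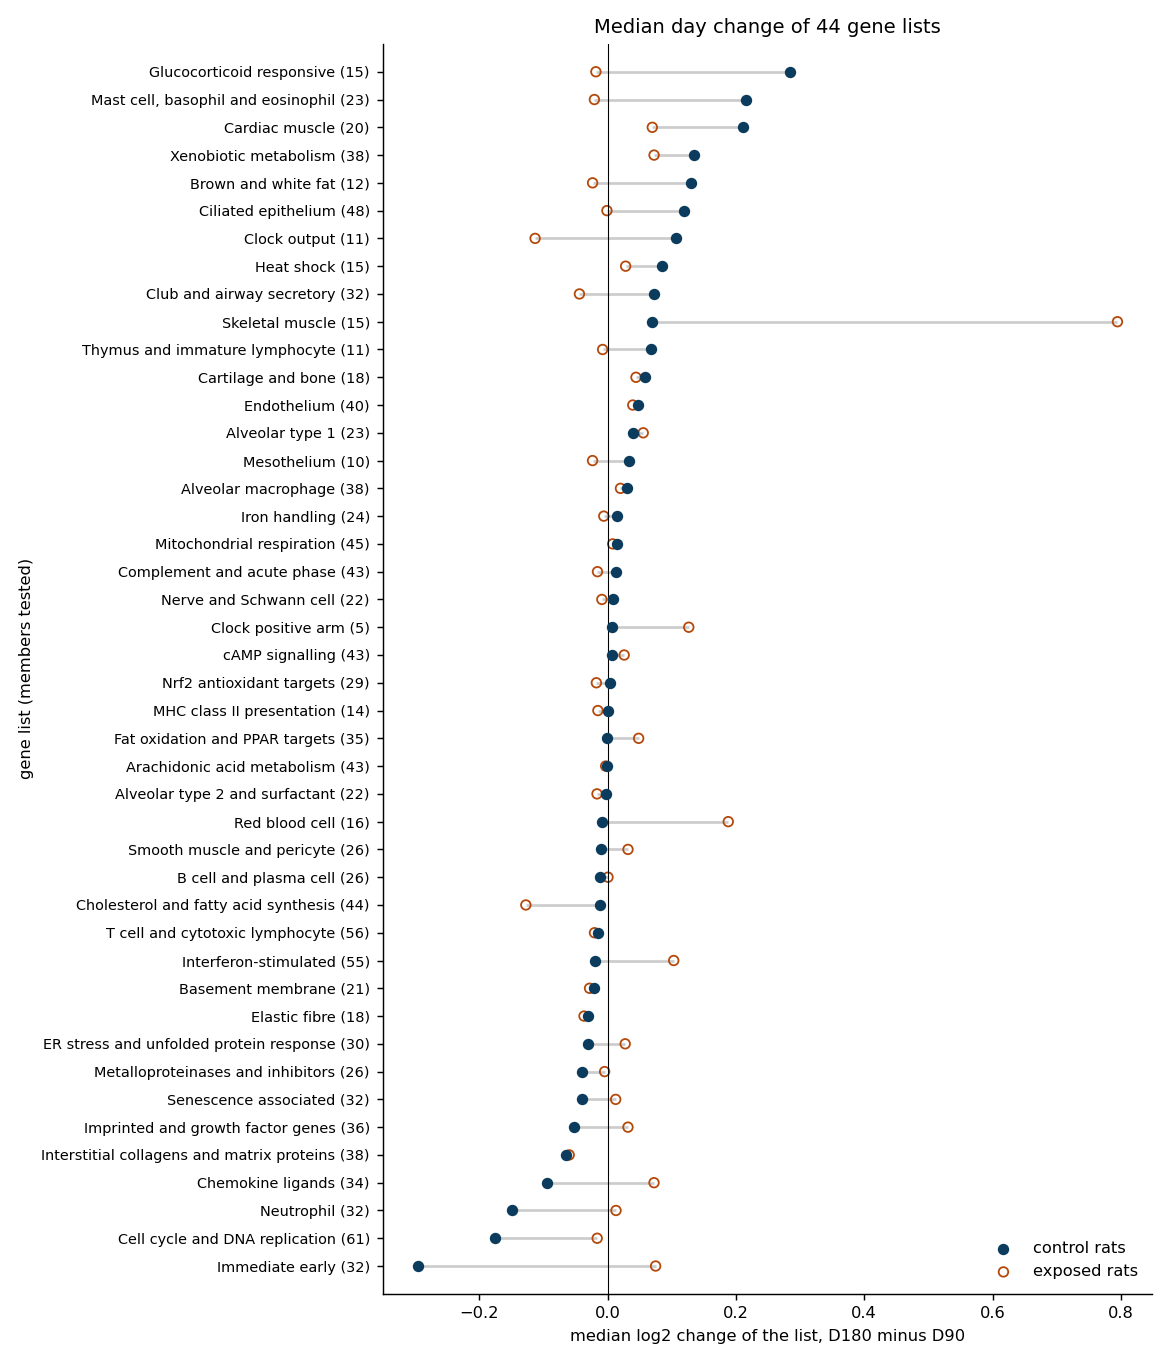
Median log2 change from D90 to D180 of each of 44 gene lists in control rats (filled) and exposed rats (open), ordered by the control value, with the number of members tested in parentheses. Control medians run from -0.30 for immediate-early genes to 0.28 for glucocorticoid-responsive genes, while the exposed medians of these lists are 0.08 and -0.02.

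Among the lists of epithelial, endothelial, macrophage, neutrophil and lymphocyte genes, no median exceeded 0.15 in size. In controls 4.34% of all genes were higher and 4.61% lower at an unadjusted p under 0.05. Type 2 and surfactant genes had 1 of 22 higher and 2 lower at an unadjusted p under 0.05 (median 0.00), with Nkx2-1, a master transcription factor of lung epithelium, at -0.13. Type 1 genes had 1 of 23 higher (median 0.04), namely the sodium channel subunit Scnn1a at 0.20, and 0 lower. In exposed rats 9 type 1 genes were higher and 0 lower, against 3.91% and 2.09% of all genes. In the average over both arms 7 were higher and 0 lower, against 5.06% and 4.44%. Club and airway secretory genes had 4 of 32 higher and 2 lower (median 0.07). Ciliated epithelium had 6 of 48 higher and 0 lower (median 0.12), 44 of them with a positive change, led by the ciliogenesis factor Foxj1 at 0.22 ± 0.08 in controls. The ciliated median was 0.07 without D90 replicate 4. Within the slides it was 0.08, 0.37 (1 rat at each day) and 0.03. In exposed rats 0 ciliated genes were higher or lower at that p. Endothelial genes had 7 of 40 higher and 3 lower (median 0.05). They had 9 higher and 2 lower in exposed rats, and 11 higher and 4 lower in the average. Alveolar macrophage genes had 4 of 38 higher and 2 lower (median 0.03), where the scavenger receptor Olr1 had -0.50 ± 0.11 and the secreted phosphoprotein Spp1 -0.83 ± 0.24. Neutrophil genes had 3 of 32 lower and 0 higher (median -0.15), one of the 3 being Il1b. T cell genes had 4 of 56 lower and 0 higher (median -0.01), with the transcription factor Gata3 at -0.73 ± 0.14 (adjusted p = 0.0654), and B cell and plasma cell genes had 1 of 26 lower, Spib at -0.16. No member of these lists was called.

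Genes that respond to glucocorticoids had 6 of 15 members higher and 1 lower at an unadjusted p under 0.05 (40% and 6.67%). Over all genes these shares were 4.34% and 4.61%. The median of this list, 0.28, was the highest of all lists. It was 0.07 when the brightest probe stood for each gene, and within the slides it was -0.03 (2 rats at each day), 0.67 (1 at each day) and 0.27 (2 at each day). Klf9, a glucocorticoid-induced transcription factor, had 0.38 ± 0.09 (adjusted p = 0.103), and the clock gene Per1 0.53 ± 0.16. Fkbp5, a chaperone of the glucocorticoid receptor, was 12.42, 12.66, 12.42, 11.48 and 11.64 at D90 and 13.27, 13.06, 13.36, 11.66 and 13.07 at D180, with overlap at D180 replicate 4. In exposed rats the list median was -0.02. The clock genes Dbp, Arntl, Per2 and Nr1d1 had log2 changes of -0.06 ± 0.21, 0.13 ± 0.15, 0.25 ± 0.14 and -0.67 ± 0.34, and none passed the test. The days had been chosen as similar in clock phase, so this is no independent evidence that the phase was equal. Clock output genes had 2 of 11 higher (median 0.11), and the clock positive arm 0 of 5 in either direction (median 0.01), with Cry1 at 0.17.

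Mast cell, basophil and eosinophil genes had 7 of 23 higher and 2 lower at an unadjusted p under 0.05. Over all genes these shares were 4.34% and 4.61%, and the list median was 0.22. The mast cell protease Cma1 was 6.57, 6.71, 7.18, 6.98 and 7.02 at D90 and 7.67, 8.16, 10.07, 6.99 and 8.17 at D180, with overlap at replicate 4. Carboxypeptidase Cpa3 had 1.05 ± 0.33 (adjusted p = 0.295), and its D180 values also peaked in replicate 3, at 8.34 against 6.44 to 7.11 in the other rats. The list median was 0.18 without that rat, 0.14 without D90 replicate 4 and 0.11 with normexp background correction. That rat also had the highest fat markers, and the fat list moved from 0.13 to -0.03 without it. The interleukin-33 receptor Il1rl1 had -0.84 ± 0.20, an average over a dim probe that was well above background on 0 D180 arrays and a brighter probe that gave -0.32. Cardiac muscle genes, a mark of heart and pulmonary vein muscle in the sample, had positive changes for 20 of 20 members (median 0.21), of which only Sln had an unadjusted p under 0.05. The median was 0.11 without D90 replicate 2 and 0.38 without D180 replicate 1, and within the 3 slides it was 0.29, -0.57 and 0.56. Their list mean lay between -0.59 and 0.11 in D90 rats and between -0.39 and 0.39 in D180 rats. The part of these other tissues in the results was not tested.

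The other lists held no call. Counts in them are at an unadjusted p under 0.05, at which 4.34% of all genes were higher and 4.61% lower in controls. Interferon-stimulated genes had 1 of 55 higher, Cxcl9, and 1 lower (median -0.02). In exposed rats 12 were higher (median 0.10), against 3.91% of all genes. Senescence-associated genes had 6 of 32 lower and 1 higher (median -0.04), and the 6 include Il1b and Ccl2. Imprinted and growth factor genes had 3 of 36 higher and 2 lower (median -0.05), led by Cdkn1c. Mitochondrial respiration genes had 0 of 45 higher and 1 lower, Cycs at -0.07 (median 0.01). Red blood cell genes had 1 of 16 lower, Hbe1 at -0.98 (median -0.01), which was well above background on 3 D90 arrays and 1 D180 array, and skeletal muscle genes 0 of 15 in either direction in controls (median 0.07), with the dim gene Myh2 at -0.45 ± 0.50. Their median in exposed rats was 0.79, and 0.15 without exposed D180 replicate 4, a leave-out added after the values were seen. In 14 further lists with 363 members, 20 members were higher and 17 lower, and medians ran from -0.03 to 0.08. The members with the smallest p in those lists included Scn10a (-0.91), Dnaja1 (0.42), Ptgds (0.26), Herpud1 (0.21), Gstp1 (0.11), Higd1b (-0.11), Cybrd1 (0.10) and Ctss (0.11). Cyp4a2 had -0.99, but was well above background on 4 D90 arrays and 1 D180 array, and had -0.57 without D90 replicate 1. Calb2 and Ccl25 were well above background on 0 and 1 of the 10 arrays and are given no change.

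Levels over all 5 control days were read as a description, since D0, D3 and D28 were hybridised on other slides and slide and day cannot be told apart across that gap. Cxcl9 had control means of 8.61, 8.95, 8.88, 9.21 and 9.59 at D0, D3, D28, D90 and D180, with SD from 0.05 to 0.22. The rats of D3 and D28 overlapped. Prmt8 had means of 4.73, 5.08, 5.28, 5.86 and 6.98 (SD 0.30 to 0.78), and each day up to D90 overlapped the day before it. Ppp1r1b had 9.32, 8.97, 9.60, 9.65 and 10.02. The D180 mean was the highest of the 5 control days for these 3 genes. Cxcl2 had means of 10.78, 10.99, 10.70, 11.08 and 9.62, so that D180 was the lowest of the 5, with SD from 0.16 to 1.14. Il1b was also lowest at D180, with 12.57, 12.27, 11.95, 12.12 and 11.61, and so was Fos, with 10.60, 9.87, 9.39, 10.10 and 8.32. Col3a1 had 13.25, 14.12, 14.52, 14.04 and 13.69, which places its highest mean at D28. Mki67 was lowest at D0, at 8.13 against 9.36 at D3 and 8.66 at D180.

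**Figure D5:**
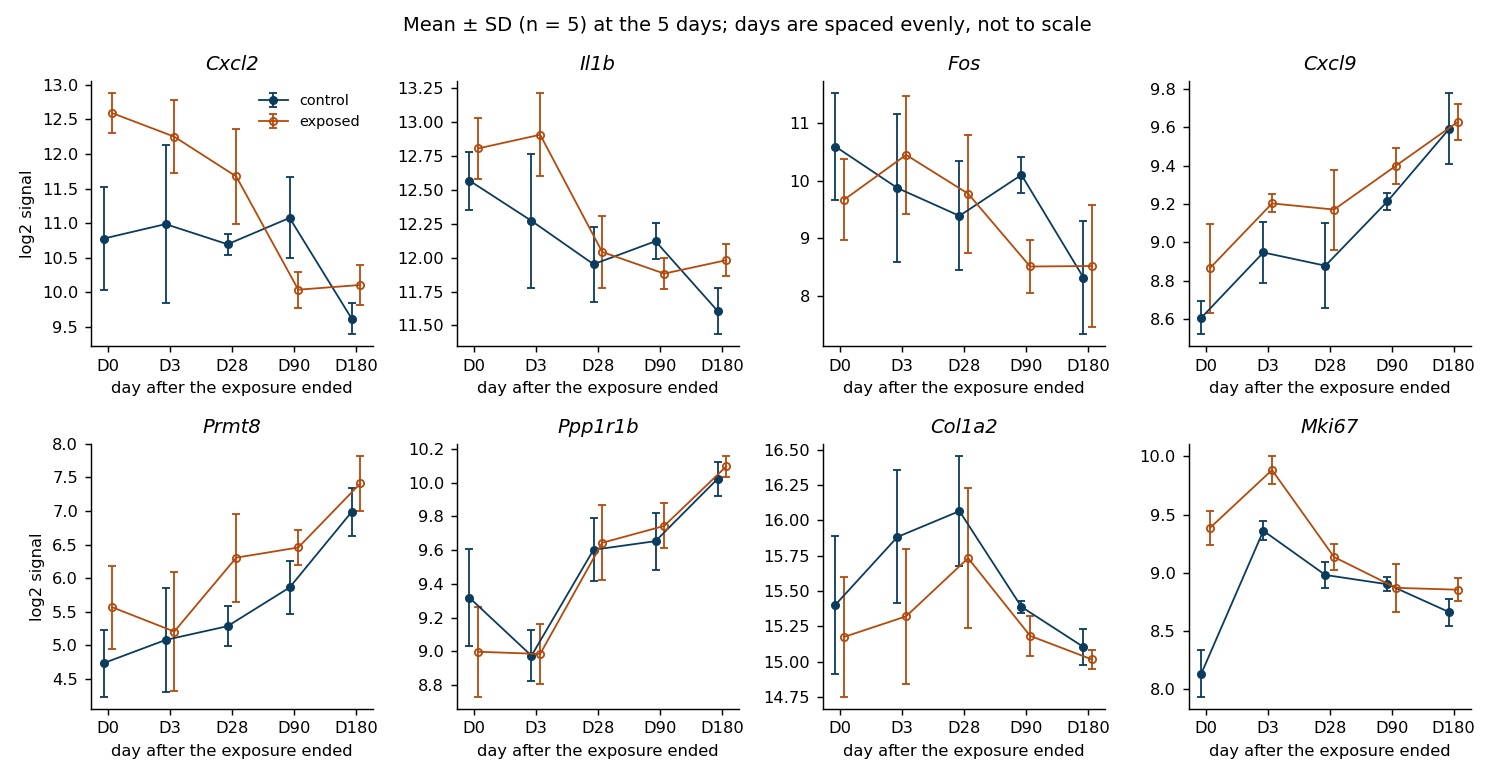
Mean log2 signal ± SD of 8 genes at the 5 days after the end of exposure in control rats (filled) and exposed rats (open), with 5 rats per point and days spaced evenly. Cxcl9, Prmt8 and Ppp1r1b have their highest control mean at D180, whereas Cxcl2, Il1b and Fos have their lowest there, and D0 to D28 lie on other slides than D90 and D180.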

How the data were processed

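Per the labels, each array held RNA of the accessory lobe of 1 rat, labelled with Cy3. The deposited arrays held spot intensity values from Agilent Feature Extraction (release 11.0.1.1 in the submitters' processing notes), and the column used was the authors' background-subtracted processed signal. Annotation columns (gene name, control type, flags) were used as deposited to select the 58717 gene spots. A second deposited table of the authors' normalized intensity values, which was quantile normalized on a linear scale without background subtraction, served as an alternative.

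Spots marked as outliers were left out, spots were averaged by gene name (25885 names, 3966 with more than 1 probe), and log2 values were quantile normalized over all 50 arrays. Genes were tested with limma 3.58.1 in R 4.3.3 (lmFit, eBayes with a trend) where the signal exceeded the 95th percentile of negative control spots on 5 or more of the 10 control arrays. The fit held the 20 arrays of D90 and D180 as 4 group means without a block. p-values were adjusted by Benjamini-Hochberg over the 23064 genes. Error values after ± are SE of the log2 change. The script was tested on simulated data.

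The groups and the 44 gene lists (1312 genes, 1212 tested) were chosen with earlier results of these data known. Genes were named by rule: called genes, the member with the smallest p in lists without a call, 4 clock and 4 lung markers and the 10 smallest p in each direction. Other named genes were chosen after their values were seen, as was the averaged day change. Alternatives changed scaling, background, filter, probe rule, blocks, samples and thresholds, and left out each control replicate. Some genes counted in the lists are not reported here by name. The number of arrays limits the precision.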

Additional observations from a re-analysis of the deposited data

Results flagged for a closer look

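A single rat stood apart from the other 4 of its group, with a gap to its nearest neighbour over 0.71 of the group's range, in 16 of 216 groups examined. Chance gives about 1 such group in 20. Among named genes these were Hist1h1b in D90 replicate 1 (log2 signal 10.02), Col1a2 in D90 replicate 4 (15.47), Hmgcs1 in D180 replicate 4 (13.03), Ptgds in D180 replicate 2 (9.74), Ccl25 in D90 replicate 1 (5.50), Per2 in D180 replicate 1 (8.39), Sftpc in D90 replicate 1 (18.95) and Ager in D180 replicate 2 (15.80). The 4 other Sftpc values of D90 are tied by the quantile normalisation.

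List means, on the log2 scale relative to the 10 arrays, stood apart for brown and white fat in D180 replicate 3 (0.79), mast cell, basophil and eosinophil genes in D180 replicate 3 (0.56), endothelium in D180 replicate 3 (0.084), cardiac muscle in D180 replicate 1 (-0.39), red blood cell genes in D90 replicate 1 (-0.26), alveolar type 1 in D90 replicate 1 (-0.030), ciliated epithelium in D90 replicate 4 (-0.21) and ER stress genes in D90 replicate 5 (-0.089). D180 replicate 3 thus stood highest for 3 lists.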

How the results depend on the processing

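The count of DEGs between D90 and D180 was small under every setting with an adjusted p, and changed by more than 1.5 times under most. In controls it was 1 in the reported analysis and 4 with 75th percentile scaling, 2 with normexp background correction, 5 with a stricter filter on dim genes, 4 with the brightest probe of each gene, 3 with marked spots kept, 7 with the slide as a block, 2 with the replicate number as a block, 0 in the 10 control arrays alone, 4 in a fit of all 50 arrays, 4 in the authors' table, 4 without a fold limit and 451 at an unadjusted p with the fold limit. Leaving out each replicate gave 0 to 7 (0 without D90 replicate 4, D180 replicate 1 or D180 replicate 3, and 7 without D180 replicate 5). In exposed rats it was 2, and 5 with the slide block, 0 with the replicate block, 1 in the fit of all 50 arrays and 0 in the authors' table. It was 5 without a fold limit, 1 with a 2-fold limit and 194 at an unadjusted p. Without single control replicates it was 2 to 3, but this keeps the exposed changes and alters only the shared estimate of spread. No exposed rat was left out for these counts. For the difference between the arms it was 0, and 1 with normexp, 2 with the stricter filter, 3 with the brightest probe, 2 with the slide block and 4 with the replicate block. It was 2 in the fit of all 50 arrays, 1 in the authors' table, 411 at an unadjusted p, and 0 to 2 without single control replicates. The averaged day change, added after the data were seen, gave 7 calls, or 9 with the slide block. Control rats with the same replicate number correlated at -0.12 to 0.03 after group means were removed, and no number correlated best with itself. The replicate block nevertheless treated rats of the same number within an arm as pairs, and no other fit did so. Cxcl2 was called under 16 of 21 alternatives (adjusted p 0.000712 to 0.137). It missed the call in the 10 control arrays alone and in the fit of all 50 arrays (0.137 in both) and without D90 replicate 4, D180 replicate 1 or D180 replicate 3. Signs reversed for Scgb1a1 with 75th percentile scaling (-0.032), Sftpc with normexp (0.013), Nid2 with the brightest probe (-0.050) and Dbp without D90 replicate 5 (0.013, within a range of -0.12 to 0.013 over single replicates left out). The cause of these moves was not tested. The list medians moved by less than their spread between replicates in all 924 refits. The slide block, the replicate block and the fit of all 50 arrays keep the control changes by design, so medians could not move there. The spread was wide for some lists, and the glucocorticoid median went from 0.28 to 0.07 with the brightest probe within it. The median SE of 0.11 leaves changes of low or variable genes undetermined.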
